A study of Bos taurus with 46 samples.

Results

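The epithelial miRNAs examined in these plasma libraries were the miR-200 family (bta-miR-141, bta-miR-200a, bta-miR-200b, bta-miR-200c and bta-miR-429), bta-miR-203 and bta-miR-205, chosen by name. Of these 7 names, 6 were rows of the table of 870 mature miRNA names, and bta-miR-203 was not analysed here. Small RNAs had been sequenced from plasma of Holstein-Friesian heifers in their second year, all oestrus-synchronised with a progesterone insert, buserelin and cloprostenol. The pregnant heifers had been inseminated and were sampled on Day 16 (P16, 10 libraries used) and Day 24 (P24, 11 libraries), while the non-pregnant heifers had been sham-inseminated and were sampled at oestrus (Day 0, group NP0) and later in the same cycle (Day 8, group NP8, and Day 16, group NP16), with 8 libraries in each group. NP stands for the 3 libraries of a non-pregnant heifer pooled into 1 value (n = 8). Levels are given as RPM, read counts scaled to the mapped reads of each library. Plasma carries RNA from many tissues, so that more cells releasing a miRNA and more of it from each cell cannot be told apart in these values.

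miRNAs are short RNAs that pair with messenger RNAs mainly through their seed, a stretch near the 5′ end, and lower the output of those messages. The miR-200 family comes from a pair of hairpin clusters, miR-200b with miR-200a and miR-429, and miR-200c with miR-141. Its members fall into a pair of seed groups that differ by a single base, miR-200b, miR-200c and miR-429 in one and miR-200a and miR-141 in the other. The family is abundant in epithelia and restrains ZEB1 and ZEB2, transcription factors that repress E-cadherin and drive the epithelial to mesenchymal transition. miR-205 is an unrelated miRNA of stratified and glandular epithelia that also targets the ZEB factors, and miR-203 is best known from the skin, where it limits the proliferative potential of keratinocyte progenitors in mice.

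The deposited table lists bta-miR-141 on chromosome 5 at 10482939 to 10482960 and bta-miR-200c at 10483361 to 10483383, 422 bases apart between their starts and both on the minus strand. It lists bta-miR-429 on chromosome 16 at 48593134 to 48593155, bta-miR-200a at 48594371 to 48594393 and bta-miR-200b at 48595028 to 48595048, also on the minus strand, so that these 3 fell within 1894 bases from first to last start. bta-miR-205 is listed on the same chromosome and strand at 72083298 to 72083319, which is 23490164 bases from bta-miR-429. The table names no genome build for these positions, and they may not be those of UMD 3.1, the genome the study used for alignment, so they serve here only to show which members lie side by side. In RefSeq the 6 hairpin genes lie on the same chromosomes, MIR141 and MIR200C on 5 and MIR200A, MIR200B, MIR429 and MIR205 on 16. A human name of one hairpin, hsa-miR-429, was also listed and held 1 read over all libraries.

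Libraries held 651408 to 5440381 miRNA reads with a median of 2814861 over the 45 used, and the deepest and shallowest gave 1 read a value of 0.134 and 0.887 RPM. One P16 library, from heifer 28, had been left out of the sequencing comparisons by the study and was left out here. Only 33.1% of its mapped reads were miRNAs, against 52.5% to 80.1% in the 45 others. Its levels of all 6 miRNAs were below those of the other 45 libraries, with 300.5 RPM of bta-miR-141, 77.9 of bta-miR-200a, 22.6 of bta-miR-429 and 210 of bta-miR-205. The 6 miRNAs of a red blood cell list (miR-486, miR-451, miR-92a, miR-16b, miR-16a and miR-144) made up 10.7% to 51.9% of miRNA reads in the 45 libraries, 7 platelet miRNAs 3.98% to 11.6% and 3 liver miRNAs 0.620% to 3.04%, so the defining miRNAs of blood cells were present in every library. The epithelial miRNAs themselves made up 0.166% to 0.605%. Most of the liver share came from bta-miR-148a, with a mean of 9948 RPM beside 40.9 RPM for bta-miR-122 and 8.71 RPM for bta-miR-885. Most of the red blood cell share came from bta-miR-486, at 146354 RPM, with bta-miR-92a next at 24911 RPM. These shares therefore do not stand for each miRNA of their lists.

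The 6 miRNAs spanned a wide range of abundance and had the same order of group means in the 5 groups. bta-miR-141 averaged 1251 ± 505 RPM over the 45 libraries (SD) and ranked 56 of all names by mean RPM. bta-miR-205 averaged 559 ± 226 RPM (rank 81), bta-miR-200a 320 ± 107 RPM (rank 98) and bta-miR-429 112 ± 34.8 RPM (rank 138). The remaining members were scarce, with 14.7 ± 5.08 RPM for bta-miR-200b (12 to 153 reads a library) and 7.55 ± 2.92 RPM for bta-miR-200c (7 to 72 reads). These 2 did not reach the abundance filter (25 RPM in 25% of the libraries of a group), so 4 of the 6 entered the tests with 214 miRNAs in all. Read counts of different miRNAs also reflect how well each ligates and amplifies, which was not measured here. Neighbours in the order could change places in a library: bta-miR-205 exceeded bta-miR-141 in 1 library (NP0 heifer 34, 1016 RPM beside 812 RPM), and bta-miR-200a exceeded bta-miR-205 in NP16 heifer 16 (602 RPM beside 471 RPM).

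**Figure D1:**
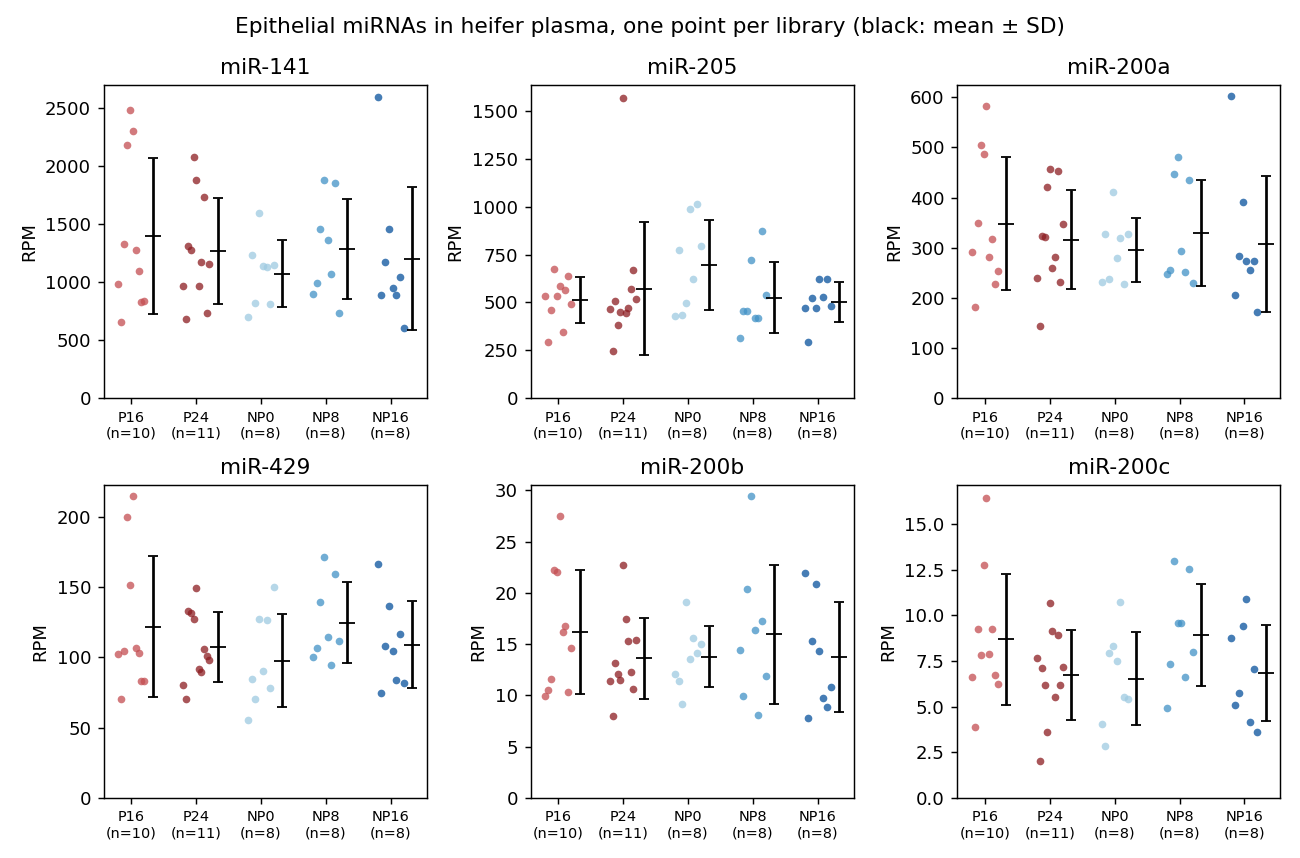
RPM of the 6 listed miRNAs (vertical axes, each panel from 0) in every library of P16, P24, NP0, NP8 and NP16, with the mean and SD in black. The groups overlapped for every miRNA. A P24 library at 1570 RPM of miR-205 and an NP16 library at 2597 RPM of miR-141 stood above their groups.

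Members listed side by side were far from equal in amount. Between bta-miR-141 and its neighbour bta-miR-200c the ratio of reads had a median of 162 (86.96 to 574 over 45 libraries). On chromosome 16, bta-miR-200a held 21.5 times the reads of bta-miR-200b (14.8 to 37) and 2.80 times those of bta-miR-429 (2.04 to 4.28), as medians with ranges. Some of the spread of the first ratio is counting error, since its denominator held as few as 7 reads. Of the 6 pairs for which ratios were computed, the one that kept the steadiest ratio came from different clusters: bta-miR-141 held 3.82 times the reads of bta-miR-200a at the median and 3.02 to 5.09 times over the 45 libraries, a 1.69-fold span. For comparison, the ratio of bta-miR-205 to bta-miR-141 spanned 6.90-fold.

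Counted by seed, the group of bta-miR-141 and bta-miR-200a made up 91.8% of the reads of the miR-200 family at the median (87.9% to 94.6%), and the group of bta-miR-200b, bta-miR-200c and bta-miR-429 held 8.20% (5.41% to 12.1%). Counted by listed position, bta-miR-141 and bta-miR-200c on chromosome 5 held 73.3% (67.8% to 79.0%). The make-up of the family varied less between groups than within them. bta-miR-141 was 73.0% ± 2.71 of family reads in P16 (SD, n = 10), 73.6% ± 2.78 in P24 (n = 11), 71.9% ± 1.96 in NP0, 72.4% ± 2.93 in NP8 and 72.6% ± 2.47 in NP16 (n = 8 each). bta-miR-429 was 6.65% ± 0.832 in P16, 6.57% ± 1.40 in P24, 6.56% ± 1.35 in NP0, 7.34% ± 1.31 in NP8 and 7.09% ± 1.32 in NP16. How reads that match more than one of these related miRNAs were assigned is not given in the sources used here, so the values of bta-miR-200b, bta-miR-200c and bta-miR-429 could share reads.

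**Figure D2:**
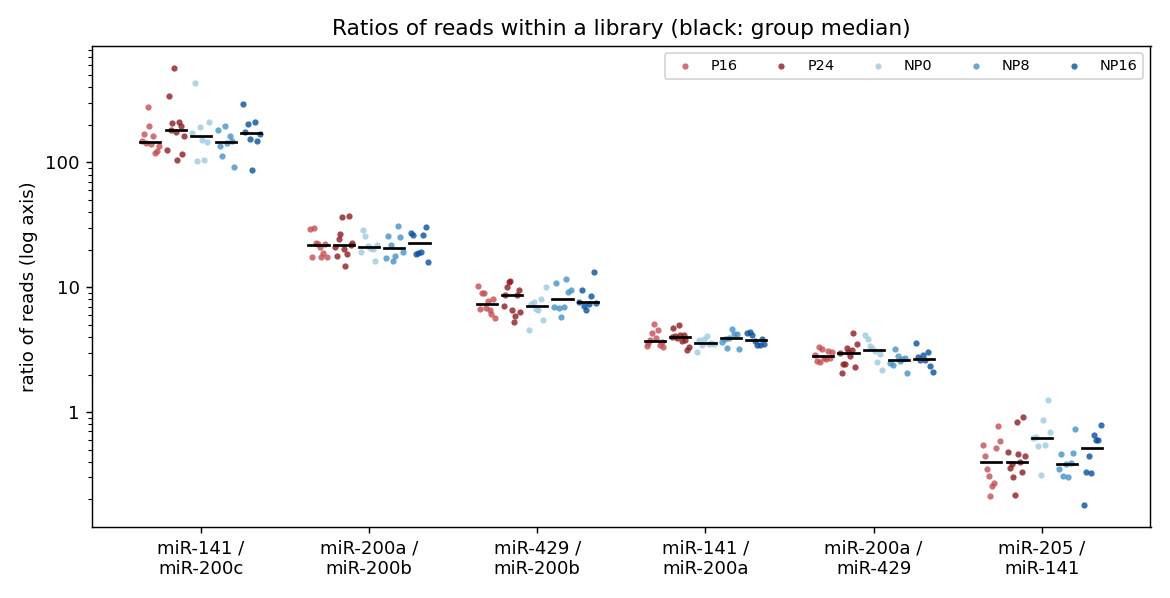
Ratio of reads of 2 miRNAs within each library (vertical log axis) for 6 pairs, with P16, P24, NP0, NP8 and NP16 side by side and group medians as black lines. The pairs ran from a median of 162 for miR-141 to miR-200c down to 0.447 for miR-205 to miR-141, and the ranges of the 5 groups overlapped for each pair.

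The comparison of pregnant with non-pregnant heifers on the same day asked whether the conceptus alters circulating miRNAs by Day 16. No epithelial miRNA passed the test. bta-miR-141 had a lowest, median and highest level of 655, 1184 and 2480 RPM in P16, against 606, 997 and 2597 RPM in NP16. bta-miR-200a had 182, 304 and 583 RPM in P16, against 172, 273 and 602 RPM in NP16. bta-miR-429 had 70.4, 104 and 215 RPM in P16, against 74.7, 106 and 167 RPM in NP16. The ranges overlapped for these 3, with the P16 heifers 14 and 24 above NP16 for bta-miR-429 (200.4 and 215 RPM). bta-miR-205, with 293, 534 and 676 RPM in P16 and 294, 501 and 623 RPM in NP16, was no different in this respect. By edgeR's quasi-likelihood test 0 of 4 members had an adjusted p under 0.1, as did 0% of the 214 miRNAs, and 0 of the 4 had an unadjusted p under 0.05 (DESeq2 and limma also called 0 of 4). The log2 fold changes, P16 over NP16, were 0.07 ± 0.29 (SE) for bta-miR-141, 0.04 ± 0.25 for bta-miR-200a, 0.03 ± 0.22 for bta-miR-429 and -0.06 ± 0.14 for bta-miR-205, with adjusted p-values of 0.918 to 0.962. Their 95% intervals reached from 0.688-fold to 1.60-fold, taken with the degrees of freedom of the 2 groups alone and so a little wider than edgeR's own test, which borrows from all miRNAs. The red blood cell miRNAs took a median of 21.4% of miRNA reads in P16 and 35.3% in NP16, and their part in these values was not tested. The study had checked its plasma samples for haemolysis and reported none that was detectable.

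With the 3 days of the cycle pooled, no member passed the test either. Per heifer, NP levels ran from 828.6 through a median of 1150 to 1643 RPM for bta-miR-141, where each value averages 3 libraries and so spreads less than the single libraries of P16 (655 to 2480 RPM). The P16 heifers 14, 17 and 24 were highest, at 2182, 2480 and 2303 RPM. In P16 against NP, 0 of 4 members were called by edgeR (0.935% of the 214 miRNAs were, both lower in P16) and 0 of 4 had an unadjusted p under 0.05. bta-miR-141 differed by 0.26 ± 0.24 on the log2 scale (adjusted p = 0.820), bta-miR-200a by 0.18 ± 0.20, bta-miR-429 by 0.15 ± 0.19 and bta-miR-205 by -0.09 ± 0.14. DESeq2 and limma called 0 of 4 as well.

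By Day 24, when the bovine conceptus has begun to attach to the endometrium, again no member differed from cycling heifers by the test on these reads. The study's PCR arrays, run on pools of the same plasma samples, had called bta-miR-141 lower on Day 24 than in NP. They are another measure, and the difference between the platforms was not tested. bta-miR-141 had 679, 1172 and 2078 RPM as lowest, median and highest of P24. bta-miR-200a had 143, 321 and 456 RPM in P24, against 243, 297 and 428 RPM in NP. bta-miR-429 had 70.3, 101 and 149 RPM in P24, against 88.7, 107 and 145 RPM in NP. P24, with single libraries, reached beyond NP, with means of 3 libraries, at both ends for these 3. For P24 against NP, edgeR called 0 of 4 members and 0% of the 214 miRNAs, and 0 of 4 had an unadjusted p under 0.05 (DESeq2 and limma also called 0 of 4). The log2 fold changes were 0.06 ± 0.18 for bta-miR-141, -0.0021 ± 0.17 for bta-miR-200a, -0.06 ± 0.14 for bta-miR-429 and -0.01 ± 0.21 for bta-miR-205. These intervals reached from 0.728-fold to 1.36-fold over the 4 members, and all 4 values lay close to the median of all tested miRNAs (0.02).

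The bta-miR-205 value for P24 depended on a single library. Heifer 24 held 1570 RPM on Day 24 (10585 reads), while the other 10 P24 libraries held 244 to 670 RPM. The P24 mean was 572 ± 348 RPM with this library (SD, n = 11) and 472 ± 112 RPM without it (n = 10), against 573 ± 135 RPM in NP (n = 8). Without it the log2 fold change of P24 over NP was -0.19 (adjusted p = 0.827, edgeR). The same library also had the largest share of leukocyte miRNAs among the 45, at 10.2% of miRNA reads against 4.72% to 7.19% in the other P24 libraries, and its 5 miR-200 family members ranked first or second of P24. The part of the leukocyte share in the bta-miR-205 value was not tested.

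**Figure D3:**
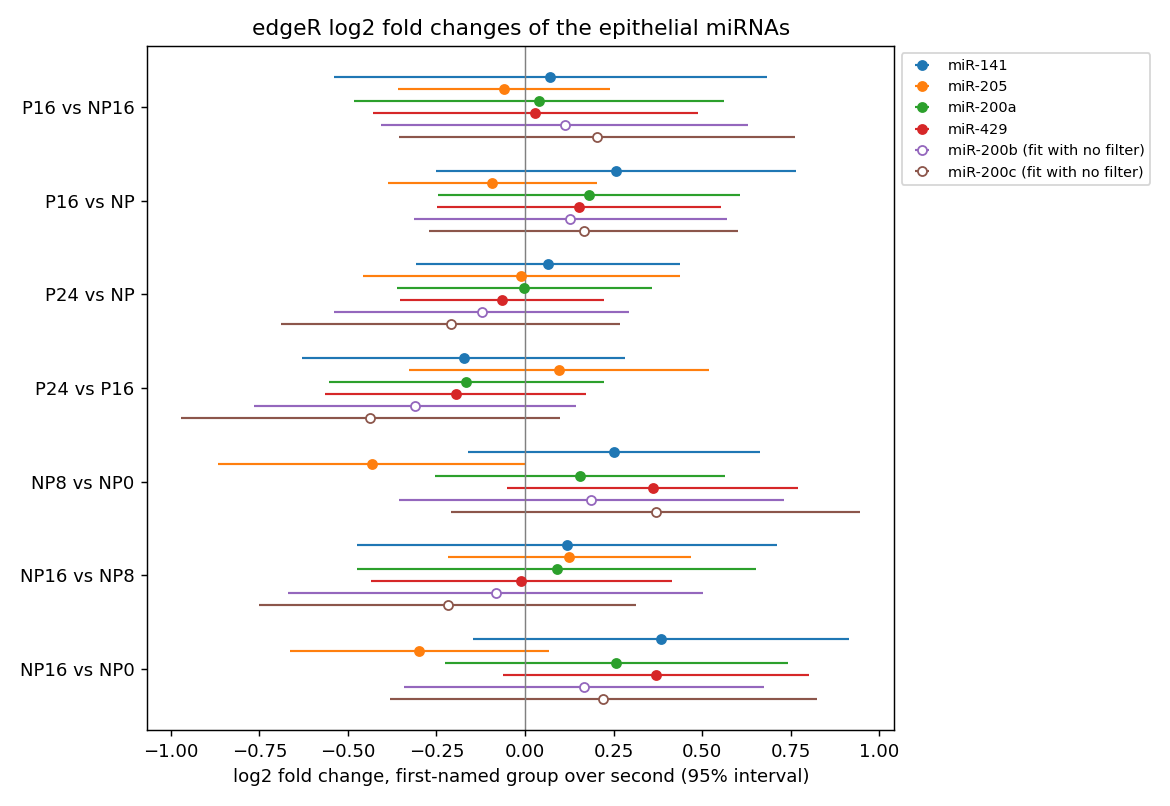
edgeR log2 fold changes (horizontal axis, first-named group over second) with 95% intervals for the 6 miRNAs in the 7 comparisons. Open circles mark miR-200b and miR-200c, which were below the filter and come from the fit with no filter. Among the 4 miRNAs tested the interval of miR-205 in NP8 vs NP0 (-0.43) only just reaches 0.

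Between Days 24 and 16 of pregnancy, 10 heifers gave both samples. bta-miR-141 was lower on Day 24 in 7 of 10 heifers, bta-miR-200a in 7 of 10 and bta-miR-429 in 6 of 10, by RPM. bta-miR-205 was higher on Day 24 in 6 of 10 by RPM but in 4 of 10 on TMM-scaled levels, on which bta-miR-429 was higher in 2 of 10. edgeR called 0 of 4 members and 0% of the 214 miRNAs in P24 against P16, with 0 of 4 at an unadjusted p under 0.05 (DESeq2 and limma called 0 of 4). The log2 fold changes were -0.17 ± 0.22 for bta-miR-141, -0.17 ± 0.19 for bta-miR-200a, -0.20 ± 0.18 for bta-miR-429 and 0.09 ± 0.20 for bta-miR-205. The value of bta-miR-205 turned to -0.11 without heifer 24 and to -0.0066 with the heifer as a block. Among the scarce members, bta-miR-200c had 2.01, 7.12 and 10.7 RPM in P24 as lowest, median and highest, against 3.89, 7.84 and 16.5 RPM in P16, a log2 fold change of -0.44 ± 0.26 in the fit with no filter (adjusted p = 1, edgeR).

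Within the oestrous cycle, Day 8 falls in the luteal phase, when the corpus luteum secretes progesterone, and Day 0 is oestrus. In the edgeR fits this contrast held the largest difference of bta-miR-205 among the 7, although on log2(RPM + 1) Day 16 against Day 0 was slightly larger (-0.43 beside -0.40). bta-miR-205 had 313, 455 and 875 RPM in NP8 as lowest, median and highest, against 431, 697 and 1016 RPM in NP0, and was lower in 6 of 8 heifers. bta-miR-429 differed in the other direction, with 94.8, 113 and 172 RPM in NP8 against 55.4, 87.2 and 150 RPM in NP0, and was higher in 6 of 8. The ranges overlapped widely for both. edgeR called 0 of 4 members and 0% of the 214 miRNAs in NP8 against NP0. The log2 fold changes were -0.43 ± 0.20 for bta-miR-205 (p = 0.0465, adjusted p = 0.507, edgeR) and 0.36 ± 0.19 for bta-miR-429 (p = 0.0757, adjusted p = 0.587). bta-miR-205 was thus the only member of 4 with an unadjusted p under 0.05, one of 19 such miRNAs among the 214, and an exact permutation test of its log2(RPM + 1) gave p = 0.12. Both tests left out the pairing of days by heifer. The paired difference on log2(RPM + 1) averaged -0.40 with an SD of 0.54 (n = 8). bta-miR-141 differed by 0.25 ± 0.19 and bta-miR-200a by 0.15 ± 0.19, and DESeq2 and limma called 0 of 4.

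Between Days 16 and 8 of the cycle no member passed the test, and the sign of the differences depended on the scaling. bta-miR-141 had 606, 997 and 2597 RPM in NP16, against 733, 1218 and 1881 RPM in NP8, and was lower in 7 of 8 heifers. Heifer 16 was the exception, with 2597 RPM in NP16 against 900.5 RPM in NP8. The edgeR log2 fold changes, which use TMM-scaled library sizes, were nevertheless 0.12 ± 0.28 for bta-miR-141, 0.09 ± 0.26 for bta-miR-200a, -0.01 ± 0.20 for bta-miR-429 and 0.12 ± 0.16 for bta-miR-205. With library totals in place of TMM the values of bta-miR-141, bta-miR-200a and bta-miR-205 turned negative, while the median of all tested miRNAs shifted to -0.15. The red blood cell miRNAs took a median of 35.3% of miRNA reads in NP16 and 21.4% in NP8, and all 6 had a positive log2 fold change (median 0.37). Their part in the shift was not tested. edgeR called 0 of 4 members and 0% of the 214 miRNAs, DESeq2 and limma called 0 of 4, and 0 of 4 had an unadjusted p under 0.05.

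In the edgeR fits Day 16 against Day 0 repeated the directions of Day 8 against Day 0, with which it shares the NP0 libraries. bta-miR-205 had 294, 501 and 623 RPM in NP16, against 431, 697 and 1016 RPM in NP0, and was lower in 6 of 8 heifers. Its log2 fold change was -0.30 ± 0.17 (adjusted p = 0.617, edgeR). bta-miR-429 differed by 0.37 ± 0.20, bta-miR-141 by 0.38 ± 0.25 and bta-miR-200a by 0.26 ± 0.23, where the last turned to -0.015 on log2(RPM + 1). Without heifer 16 these 3 were 0.17 for bta-miR-429, 0.055 for bta-miR-141 and 0.0088 for bta-miR-200a. By RPM with all heifers, bta-miR-141 and bta-miR-200a were each higher on Day 16 in 3 of 8 and bta-miR-429 in 5 of 8. edgeR called 0 of 4 members and 0% of the 214 miRNAs, and DESeq2 and limma called 0 of 4. With 0 of 4 at an unadjusted p under 0.05, the intervals of the 4 members in this comparison reached from 0.631-fold to 1.89-fold, the widest at the upper end.

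Other miRNAs of epithelia and of the mesenchyme, which the miR-200 family is known to hold apart, were set beside these values. Of 15 further epithelial names 13 were listed and 6 passed the filter, the most abundant being bta-miR-192, a miRNA of gut, kidney and liver epithelium, at 36443 RPM. In each of the 7 comparisons 0 of these 6 were called, and their median log2 fold change lay between -0.04 and 0.08. Single values spread more, from -0.34 in NP8 against NP0 to 1.01 for bta-miR-182 in P24 against P16 (0.90 in P24 against NP). The 6 miRNAs of the mesenchymal list (miR-143, miR-145, the miR-199 forms and miR-214) all passed the filter, and 0 were called in any comparison. All 6 mesenchymal miRNAs were below 0 in NP8 against NP0 (median -0.49, from -0.785 to -0.133). They were also below 0 in NP16 against NP0 (median -0.44), from -0.783 to -0.004, the last being nearly 0. In these comparisons the 4 epithelial miRNAs had medians of 0.20 and 0.31, bta-miR-205 alone being below 0 (-0.43 and -0.30). The 214 tested miRNAs had a median of 0.02 in each. These comparisons share the NP0 libraries, in which the list took 0.981% to 6.47% of miRNA reads, with the top value in heifer 16.

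Members of the miR-200 family varied together from heifer to heifer. Over 18 pairs of members and groups, Pearson's r was computed on log2(RPM + 1) with one value per heifer and permutation p-values adjusted over the 18. bta-miR-141 and bta-miR-200a, listed on different chromosomes, had r = 0.933 in P24 (n = 11 heifers, rho = 0.909, adjusted p = 0.00012 by permutation). In P16 the pair had r = 0.969 (n = 10, rho = 0.927, adjusted p = 0.00012 by permutation). In NP it had r = 0.961 (n = 8, rho = 0.905, adjusted p = 0.000893 by exact permutation). Without the 2 heifers farthest from the median of bta-miR-141 these became 0.950, 0.962 and 0.914. The last, in NP, had an adjusted p of 0.05 by exact permutation over 6 heifers and so did not pass the limit (under 0.05). Among all 22791 pairs of tested miRNAs the median r was 0.23 in P24 and P16 and 0.29 in NP. The 95th percentile of these r was 0.790 in P24, 0.802 in P16 and 0.877 in NP. P24 and P16 share 10 heifers and are not independent of each other.

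bta-miR-429 gave lower r with the other members than they gave with each other in P24 and NP, a difference that was not tested. On log2(RPM + 1) its r with both lay below the 95th percentile of all tested pairs in P24 (0.790) and NP (0.877). On TMM-scaled levels that percentile was 0.684 in P24 and 0.735 in NP. There its r with bta-miR-200a lay above it in both groups (0.710 and 0.855). With bta-miR-141 it lay above in NP (0.776) and below in P24 (0.649). With bta-miR-200a, its neighbour in the listed cluster, it had r = 0.788 in P24 (rho = 0.736, adjusted p = 0.0115 by permutation), 0.967 in P16 (rho = 0.927, adjusted p = 0.00012 by permutation) and 0.683 in NP (rho = 0.524, adjusted p = 0.115 by exact permutation). With bta-miR-141 it had r = 0.755 (rho = 0.764), 0.945 (rho = 0.952) and 0.567 (rho = 0.548) in P24, P16 and NP, with adjusted permutation p-values of 0.0208, 0.00027 and 0.168. On TMM-scaled levels a call changed in each of 2 groups: the pair with bta-miR-200a passed in NP (r = 0.855, rho = 0.929, adjusted p = 0.00982 by exact permutation), and the pair with bta-miR-141 did not pass in P24 (r = 0.649, adjusted p = 0.0602 by permutation). In P16 both relations held without the farthest heifers (0.945 and 0.964). In P24 they were 0.554 and 0.627 without them and did not pass the test over the 9 heifers left.

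No correlation of bta-miR-205 with the family passed the test. Its r with bta-miR-141 was 0.488 in P24, 0.461 in P16 and -0.12 in NP, with rho of 0.318, 0.273 and -0.02. With bta-miR-200a it was 0.632, 0.577 and -0.22 (rho 0.491, 0.479 and -0.26) and with bta-miR-429 0.612, 0.544 and 0.276 (rho 0.445, 0.358 and 0.357). The smallest adjusted permutation p being 0.0839. In P24 the last 2 turned to -0.086 and -0.20 without the 2 farthest heifers, 11 and 24. Whether the correlations with bta-miR-205 differ from those within the family was not tested.

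**Figure D4:**
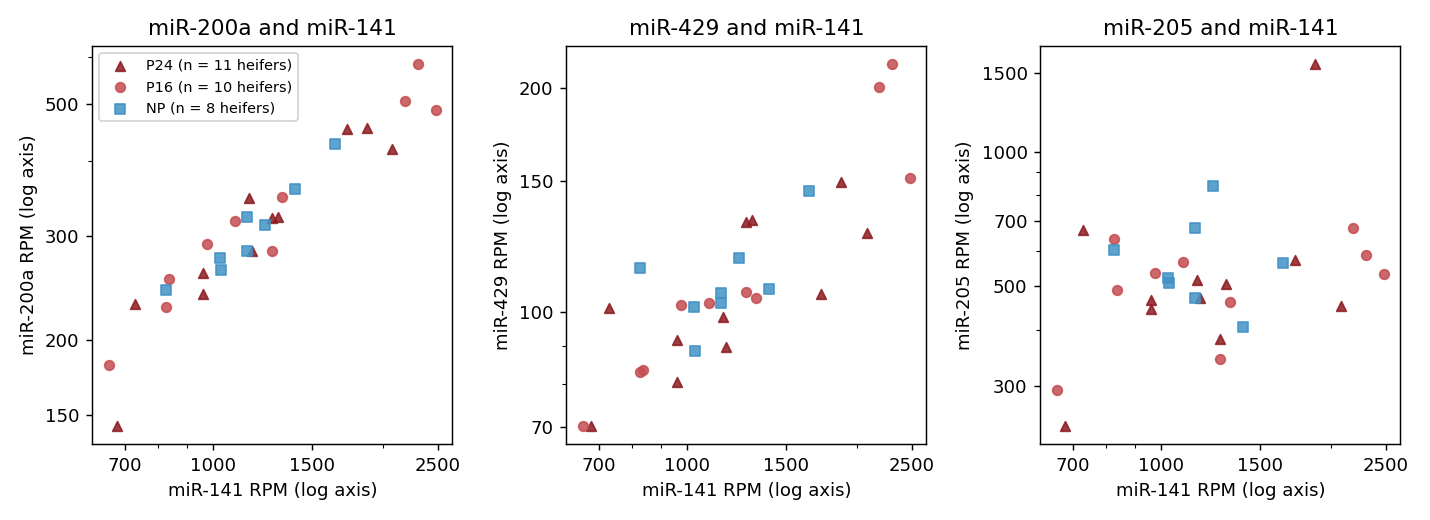
RPM of miR-200a, miR-429 and miR-205 (vertical log axes) against miR-141 (horizontal log axis), one point per heifer, for P24 (n = 11), P16 (n = 10) and NP (n = 8). Points of miR-200a lie along one line in the 3 groups (r of 0.933, 0.969 and 0.961), while those of miR-205 scatter (r of 0.488, 0.461 and -0.12).

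The ranking of all tested miRNAs by likeness gave a similar picture over the 45 libraries, here as Spearman's rho of TMM-scaled levels and without a test, since libraries of one heifer are not independent. The 3 miRNAs most like bta-miR-141 were bta-miR-200a (0.954), bta-miR-429 (0.825) and bta-miR-215 (0.771). The 3 most like bta-miR-200a were bta-miR-141, bta-miR-429 (0.851) and bta-miR-215 (0.736), and for bta-miR-429 they were bta-miR-200a, bta-miR-141 and bta-miR-215 (0.700). The place of bta-miR-215 depended on the scaling. By RPM it ranked 4 for bta-miR-141 (0.714), 9 for bta-miR-200a (0.656) and 9 for bta-miR-429 (0.581). The median rho with all tested miRNAs was 0.05 for bta-miR-141, 0.03 for bta-miR-200a and 0.06 for bta-miR-429. bta-miR-215, at 11237 RPM, shares its seed with miR-192 and is abundant in intestinal and kidney epithelium. bta-miR-205 had other neighbours, namely bta-miR-532 (0.710), bta-miR-342 (0.683) and bta-miR-660 (0.641), with a median of 0.06. By RPM bta-miR-660 ranked 4 (0.647). In human, miR-532 and miR-660 belong to one hairpin cluster on the X chromosome.

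The scarce members followed the family in rank as far as their counts allowed. On RPM over the 45 libraries, bta-miR-200b had rho of 0.730 with bta-miR-200a, 0.689 with bta-miR-141, 0.682 with bta-miR-429 and 0.298 with bta-miR-205. bta-miR-200c had 0.591 with bta-miR-200a, 0.564 with its listed neighbour bta-miR-141, 0.609 with bta-miR-429 and 0.273 with bta-miR-205. With a median of 50 and 30 reads per library these values carry much counting error. Against the share of the red blood cell list, the TMM-scaled levels of bta-miR-141, bta-miR-200a and bta-miR-429 had rho of -0.05, -0.02 and 0.06, and bta-miR-205 had 0.15. Against the platelet list they had -0.22, -0.28, -0.30 and, for bta-miR-205, -0.50. In the same order of miRNAs, the leukocyte list gave -0.18, -0.19, -0.10 and 0.21, and the liver list 0.19, 0.15, 0.06 and -0.15. The mesenchymal list gave positive rho for all 4, at 0.29, 0.34, 0.22 and 0.37. Against the list of other epithelial miRNAs bta-miR-141, bta-miR-200a and bta-miR-429 had 0.68, 0.68 and 0.60, and bta-miR-205 had 0.08. Most of that share came from bta-miR-192 and bta-miR-215, at 36443 and 11237 RPM, with bta-miR-375 next at 2297 RPM. These rho therefore do not stand for each miRNA of the list.

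Levels of the miR-200 family on Day 24 of pregnancy followed those of the same heifers on Day 16. Over 10 heifers r was 0.791 for bta-miR-141 (rho = 0.842, adjusted p = 0.0115 by permutation over 4 miRNAs), 0.770 for bta-miR-200a (rho = 0.721, adjusted p = 0.0115 by permutation) and 0.799 for bta-miR-429 (rho = 0.746, adjusted p = 0.0115 by permutation). For bta-miR-205 it was 0.536 (rho = 0.455, adjusted p = 0.125 by permutation). The median over the 214 tested miRNAs was 0.355, and how many of them would pass the same test was not counted. Heifers 17 and 24 were high on both days for bta-miR-141, with 2078 and 1876 RPM on Day 24 against 2480 and 2303 RPM on Day 16, and heifer 11 was lowest on both, with 679 RPM on Day 24 against 655 RPM on Day 16. Without the 2 heifers farthest from the median, r was 0.584 for bta-miR-141, 0.522 for bta-miR-200a, 0.666 for bta-miR-429 and 0.131 for bta-miR-205, with adjusted permutation p-values of 0.249 or more over the 8 heifers left, so that no relation passed the test without the most extreme heifers. On TMM-scaled levels with all 10 heifers r was 0.910 for bta-miR-141 and 0.819 for bta-miR-200a, both passing, while bta-miR-429 had 0.563 and did not pass (adjusted p = 0.121 by permutation).

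**Figure D5:**
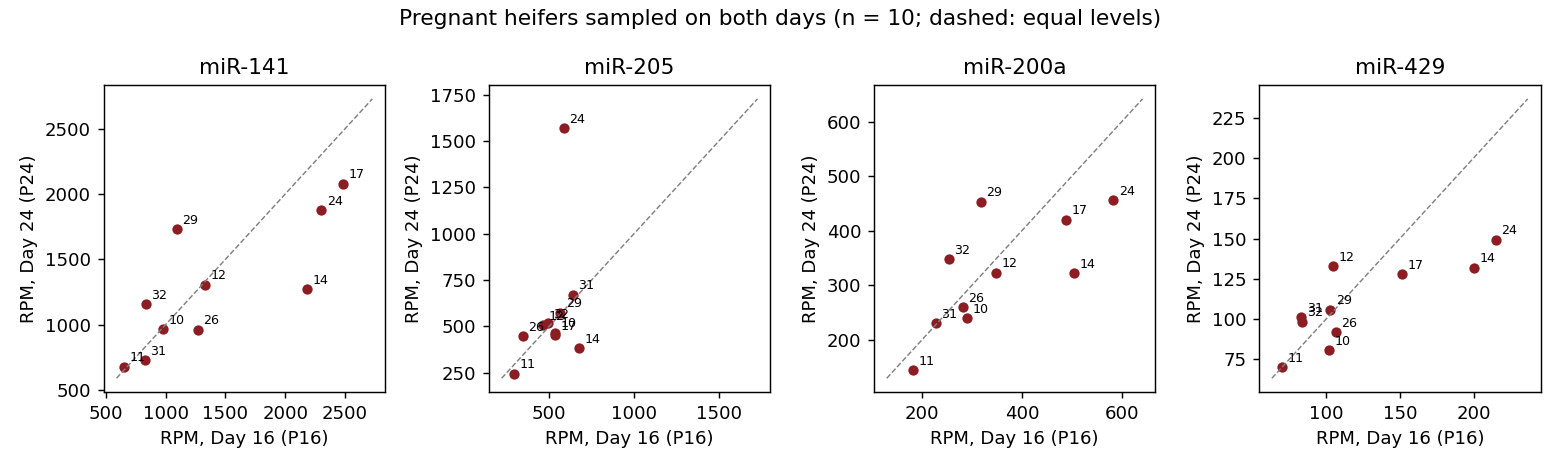
RPM on Day 24 (vertical axes) against Day 16 (horizontal axes) of pregnancy for the 10 heifers sampled on both days, numbered by heifer, with a dashed line of equal levels. Heifers high on Day 16 were high on Day 24 for miR-141, miR-200a and miR-429 (r of 0.791, 0.770 and 0.799), and heifer 24 stands alone for miR-205.

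In the non-pregnant heifers, levels of the miR-200 family were less constant within a heifer than those of most tested miRNAs on RPM, but not for bta-miR-141 and bta-miR-200a on TMM-scaled levels. With the mean of each day removed, the share of variance of log2(RPM + 1) that lay between heifers over Days 0, 8 and 16 (intraclass correlation, n = 8) was -0.03 for bta-miR-141, 0.0043 for bta-miR-200a, -0.10 for bta-miR-429 and 0.27 for bta-miR-205, beside a median of 0.29 over the 214 tested miRNAs. Values at or below 0 mean that libraries of one heifer were no more alike than those of different heifers. Heifer 16 weighed on this, with bta-miR-141 at 696 RPM on Day 0, 900.5 RPM on Day 8 and 2597 RPM on Day 16. Without that heifer the shares were 0.32 for bta-miR-141, 0.27 for bta-miR-200a, 0.08 for bta-miR-429 and 0.18 for bta-miR-205. The order turned with the scaling: on TMM-scaled levels with all heifers the shares were 0.25 for bta-miR-141, 0.31 for bta-miR-200a, -0.03 for bta-miR-429 and -0.08 for bta-miR-205, beside a median of 0.20 over the tested miRNAs, so that bta-miR-141 and bta-miR-200a then lay above the median. Whether constancy differed between pregnant and non-pregnant heifers was not tested, the intervals between samples being unequal.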

How the data were processed

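Plasma small-RNA libraries (TruSeq small RNA kit, 36-base single-end reads) had been aligned by the authors with sRNAtoolbox, with UMD 3.1 as genome and mature bovine and human miRNAs with 1 mismatch allowed. The authors deposited raw counts per miRNA name, and RPM, which are counts scaled to the mapped reads of a library. The members and lists were chosen with earlier results of these data known. The miRNAs reaching 25 RPM in 25% of the libraries of a group (214 of 870) were tested on counts with edgeR 4.0.16 (glmQLFit, glmQLFTest, TMM, R 4.3.3), with Benjamini-Hochberg adjustment over all 214 and a limit of 0.1. Each comparison was fitted on its own groups without pairing by heifer, NP being the summed counts of a heifer. Intervals were 95%. P16 replicate 28 was left out, as in the study. No other column was left aside. Alternatives were library totals, DESeq2 1.42.0 and its size factors, limma 3.58.1 on log2(RPM + 1) or log2(RPM + 0.1) with a two-sided exact permutation test, other filters, a limit of 0.05, each heifer left out, and the heifer as a block. Correlations used exact or 100000 permutations (two-sided, limit 0.05 after adjustment). Named were all members and the 3 tested miRNAs most like each tested member. Heifers pair the days because the labels give the same subject number: deviations of paired libraries correlated with a median r of 0.42 for P24 and P16, and 0.24, 0.43 and 0.40 for NP8 and NP0, NP16 and NP8, and NP16 and NP0. No pair of libraries was identical. Code was tested on simulated data. Lists of other cell types are given as percent of miRNA reads. Depth was 651408 to 5440381 miRNA reads.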

Additional observations from a re-analysis of the deposited data

Results flagged for a closer look

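Among 54 sets of values examined for a library standing apart from the others of its group (gap to the nearest value over the range, groups of 4 to 10), 6 held one. The limit is set to flag about 1 in 20 sets of independent, normal values. These sets share libraries and members, and normality was not tested, so no excess over chance is read from the 6. bta-miR-141 was at 2597 RPM in NP16 heifer 16, with the next at 1458 RPM. That library also had the largest share of the other epithelial list among the 45, at 13.5% of miRNA reads, and the smallest red blood cell share of NP16, at 18.7%, whose part was not tested. bta-miR-205 was at 294 RPM in NP16 heifer 18, with the next at 470 RPM, and this library had the largest red blood cell share of the 45, at 51.9%. The ratio of bta-miR-141 to bta-miR-200c reads was 432 in NP0 heifer 18 (next 212), where bta-miR-200c had 10 reads, and 279 in P16 heifer 14 (next 194). The ratio of bta-miR-429 to bta-miR-200b reads was 13.2 in NP16 heifer 34 (next 9.54), where bta-miR-200b had 24 reads. The ratio of bta-miR-205 to bta-miR-141 was 0.73 in NP8 heifer 35 (next 0.47). P24, with 11 libraries, was not examined in this way, so the 1570 RPM of bta-miR-205 in heifer 24 is not among the 6.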

How the results depend on the processing

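The count of members called stayed at 0 in all 7 comparisons under every alternative, the smallest adjusted p of a member under any of them being 0.238. Scaling moved the median of all tested miRNAs by more than 0.1: library totals gave 0.18 in P16 vs NP16, -0.15 in NP16 vs NP8 and -0.21 in NP16 vs NP0, and limma on RPM 0.12, -0.17 and -0.15. Under settings that kept all heifers, 29 log2 fold changes of members changed sign and 321 did not, and the cause was not tested. In P16 vs NP16 these were bta-miR-205 (0.11 with library totals, 0.022 with limma at either pseudocount) and, with replicate 28 kept, bta-miR-200a (-0.0047) and bta-miR-429 (-0.030). In P24 vs NP they were bta-miR-200a, bta-miR-429 and bta-miR-205 with library totals (0.094, 0.012 and 0.061), and bta-miR-200a and bta-miR-205 with DESeq2 or its size factors (0.031 and 0.020) and the filter at 100 RPM (0.016 and 0.0021). In NP16 vs NP8 bta-miR-141, bta-miR-200a and bta-miR-205 turned with library totals (-0.083, -0.097 and -0.064) and limma (-0.15, -0.14 and -0.026 at either pseudocount). In NP16 vs NP0 bta-miR-200a (-0.015 at a pseudocount of 1, -0.016 at 0.1) and bta-miR-200b (-0.062 and -0.071, and -0.056 with library totals) turned with limma. The heifer as a replicate block turned bta-miR-205 in P24 vs P16 (-0.0066) and changed no call.

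Leaving out heifers in turn (members past the filter only) changed 41 signs, left 319 and changed no call. Ranges that crossed 0 were -0.080 to 0.28 for bta-miR-141, -0.086 to 0.20 for bta-miR-200a and -0.085 to 0.14 for bta-miR-429 in P16 vs NP16. In P24 vs NP they were -0.011 to 0.15 for bta-miR-141, -0.067 to 0.084 for bta-miR-200a, -0.11 to 0.0096 for bta-miR-429 and -0.19 to 0.061 for bta-miR-205. In P24 vs P16 bta-miR-205 ran over -0.11 to 0.15, and in NP16 vs NP8 bta-miR-141 over -0.12 to 0.23, bta-miR-200a over -0.092 to 0.21 and bta-miR-429 over -0.079 to 0.044. Of 18 correlations 7 passed, also 7 on TMM-scaled levels (bta-miR-141 with bta-miR-429 in P24 lost, bta-miR-200a with bta-miR-429 in NP gained) and 4 without the 2 farthest heifers, where fewer heifers remain. How many of all tested pairs would pass the same test was not counted. bta-miR-429 with bta-miR-205 turned to -0.050 in NP on TMM-scaled levels, and in P24, without those heifers, bta-miR-205 turned to -0.086 with bta-miR-200a and -0.20 with bta-miR-429. Of 4 relations between Days 24 and 16 of pregnancy 3 passed, 2 on TMM-scaled levels (bta-miR-429 lost) and 0 without the farthest heifers. bta-miR-200b and bta-miR-200c, at 12 to 153 and 7 to 72 reads, were limited by depth.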
